A study of Saccharomyces cerevisiae with 6 samples.

Results

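The genes described here encode core proteins of the yeast spliceosome and the related Lsm proteins. They were chosen by name alone, as every protein-coding gene of the table called PRP, LSM, SMD or SMX followed by a number. The rule found 37 genes among 5795, namely 23 PRP genes, 9 LSM genes and 5 SMD and SMX genes. It leaves out spliceosome genes with other names, such as SMB1 and SME1 for the remaining Sm proteins. RNA from whole cultures of budding yeast, Saccharomyces cerevisiae, was depleted of ribosomal RNA and sequenced with strand information in 6 libraries, 2 biological replicates for each of 3 groups. The groups were gat1-delta cells grown with proline, dal80-delta cells grown with glutamine, and gat1-delta cells grown with glutamine, written gat1Δ and dal80Δ here. Every group thus lacked a GATA-family regulator of nitrogen genes, either the activator Gat1 or the repressor Dal80, and no wild-type library was analysed here. Strain background, mating type and growth phase are not stated in the labels.

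The spliceosome removes introns from precursor messenger RNA. It is assembled on each intron from small nuclear ribonucleoproteins (snRNPs), each built on one of the snRNAs U1, U2, U4, U5 and U6. Sm proteins form a ring on U1, U2, U4 and U5, while Lsm2 to Lsm8 form a similar ring on U6 in the nucleus. Lsm1 to Lsm7 form a ring in the cytoplasm that binds messenger RNAs on their way to decapping and decay, so that Lsm1 and Lsm8 set the rings apart. Most Prp proteins are snRNP subunits or ATPases that drive the rearrangements of the cycle. Introns are few in budding yeast and lie mostly in highly expressed genes, above all those for ribosomal proteins.

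Of the 37 genes 3 carry an intron in the RefSeq annotation of build R64 (8.11%), against 277 of 5594 tested genes (4.95%). They are LSM2, LSM7 and SMD2, and their introns are shown because these transcripts are substrates of the machinery they encode. Capitals mark the first 6 bases, the branch point motif TACTAAC and the last 3 bases. Positions are on the plus strand, at chr2:170677-170804 for LSM2, chr14:350958-351053 for LSM7 and chr12:694383-694472 for SMD2, and bases are written 5′ to 3′.
LSM2: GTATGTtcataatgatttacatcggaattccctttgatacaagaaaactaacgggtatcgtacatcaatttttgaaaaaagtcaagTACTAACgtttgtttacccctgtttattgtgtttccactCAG
LSM7: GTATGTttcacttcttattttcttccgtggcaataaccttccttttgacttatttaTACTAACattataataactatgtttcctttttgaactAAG
SMD2: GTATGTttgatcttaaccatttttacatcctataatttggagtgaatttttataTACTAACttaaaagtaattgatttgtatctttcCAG
All 3 introns begin with GTATGT, which opens 73.2% of 276 introns of the tested nuclear genes, and all 3 hold TACTAAC, found in 83.3% of them. They are 128, 96 and 90 bases long in LSM2, LSM7 and SMD2, where the median intron of those genes has 142. The deposited densities divide reads by the whole gene, of which the intron is 30.8% in LSM2, 21.6% in LSM7 and 21.3% in SMD2, so densities of these genes are lower than per base of exon.

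The windows of 300 bases before the start codons were searched on both strands for short motifs. GATAA, the core bound by GATA factors, was present in 17 of 37 windows (45.9%), against 61.0% of 5571 windows of tested genes. GATGAG, the core of the PAC element, and AAAATTTT, a core of the RRPE element, both known from ribosome biogenesis genes, were each present in 3 windows (8.11%), against 18.8% and 9.85%. These motifs share no bases with one another where they occur below, and a match is a match of letters, not a site in use. Of the 37 windows 18 reach into the neighbouring annotated feature, because the gap before the gene is shorter than 300 bases. Of the upstream neighbours 23 are read in the opposite direction. Windows of 3 genes are shown in the gene's direction, with motif matches in capitals. LSM3 had the highest log2 fold change in proline, LSM4 had 2 matches to GATAA, and PRP43, whose product also acts in ribosome biogenesis, was the gene with both GATGAG and AAAATTTT. The windows lie at chr12:1014179-1014478 (minus strand), chr5:386932-387231 (plus strand) and chr7:283938-284237 (minus strand).
LSM3: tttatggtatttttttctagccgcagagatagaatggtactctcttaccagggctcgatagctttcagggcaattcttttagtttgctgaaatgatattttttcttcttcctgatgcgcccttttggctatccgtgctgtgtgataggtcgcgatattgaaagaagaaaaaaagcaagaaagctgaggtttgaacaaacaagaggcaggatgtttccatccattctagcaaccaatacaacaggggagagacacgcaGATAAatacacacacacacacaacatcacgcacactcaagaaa
LSM4: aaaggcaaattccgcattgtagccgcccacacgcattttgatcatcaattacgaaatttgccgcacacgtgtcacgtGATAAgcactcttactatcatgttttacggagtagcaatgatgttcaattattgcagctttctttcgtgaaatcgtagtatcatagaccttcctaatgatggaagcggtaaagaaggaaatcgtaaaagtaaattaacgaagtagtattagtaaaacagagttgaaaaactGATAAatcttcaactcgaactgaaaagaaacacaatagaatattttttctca
PRP43: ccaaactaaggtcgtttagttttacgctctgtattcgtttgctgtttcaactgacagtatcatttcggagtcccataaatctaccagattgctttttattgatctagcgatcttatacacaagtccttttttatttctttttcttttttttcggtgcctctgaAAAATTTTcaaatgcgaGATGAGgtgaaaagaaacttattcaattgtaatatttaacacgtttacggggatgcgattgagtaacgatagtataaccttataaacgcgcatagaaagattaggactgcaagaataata
The 17 genes with GATAA had a median log2 fold change in proline of 0.97, and the 20 without it one of 0.80. Over all tested genes with GATAA in the window the median was 0.51, and over all genes tested it was 0.50. These medians are given as a description with no test.

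The libraries held between 17009715 and 34718641 reads over 6192 annotated features, of which 11822090 to 26678959 fell on protein-coding genes. The deletions were read first. GAT1 had 3 and 2 reads in gat1Δ proline, 1603 and 1062 in dal80Δ glutamine, and 2 and 2 in gat1Δ glutamine. DAL80 had 195 and 497 reads in gat1Δ proline, 1 and 0 in dal80Δ glutamine, where 0 allows up to 3, and 2 and 1 in gat1Δ glutamine, so its reads in glutamine do not show that deletion. Levels below are scaled reads per kilobase, the authors' density of scaled reads per base expressed per kilobase, where scaling brought every library to nearly the same total over genes. As each library pools a culture, fewer cells with a transcript and less transcript per cell cannot be told apart.

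Together the 37 genes took 0.193% and 0.173% of gene reads in gat1Δ proline, 0.0825% and 0.0811% in dal80Δ glutamine, and 0.106% and 0.100% in gat1Δ glutamine. Most of them were low. In gat1Δ proline 14 and 15 of the 37 lay above the median tested gene, in dal80Δ glutamine 11 and 11, and in gat1Δ glutamine 12 and 12. LSM6, for a subunit of both Lsm rings, was the highest per kilobase in every library, and PRP21, for a subunit of the U2-bound SF3a complex, the lowest. The lowest count behind any value was 26 reads, for PRP21 in dal80Δ replicate 2.

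**Figure D1:**
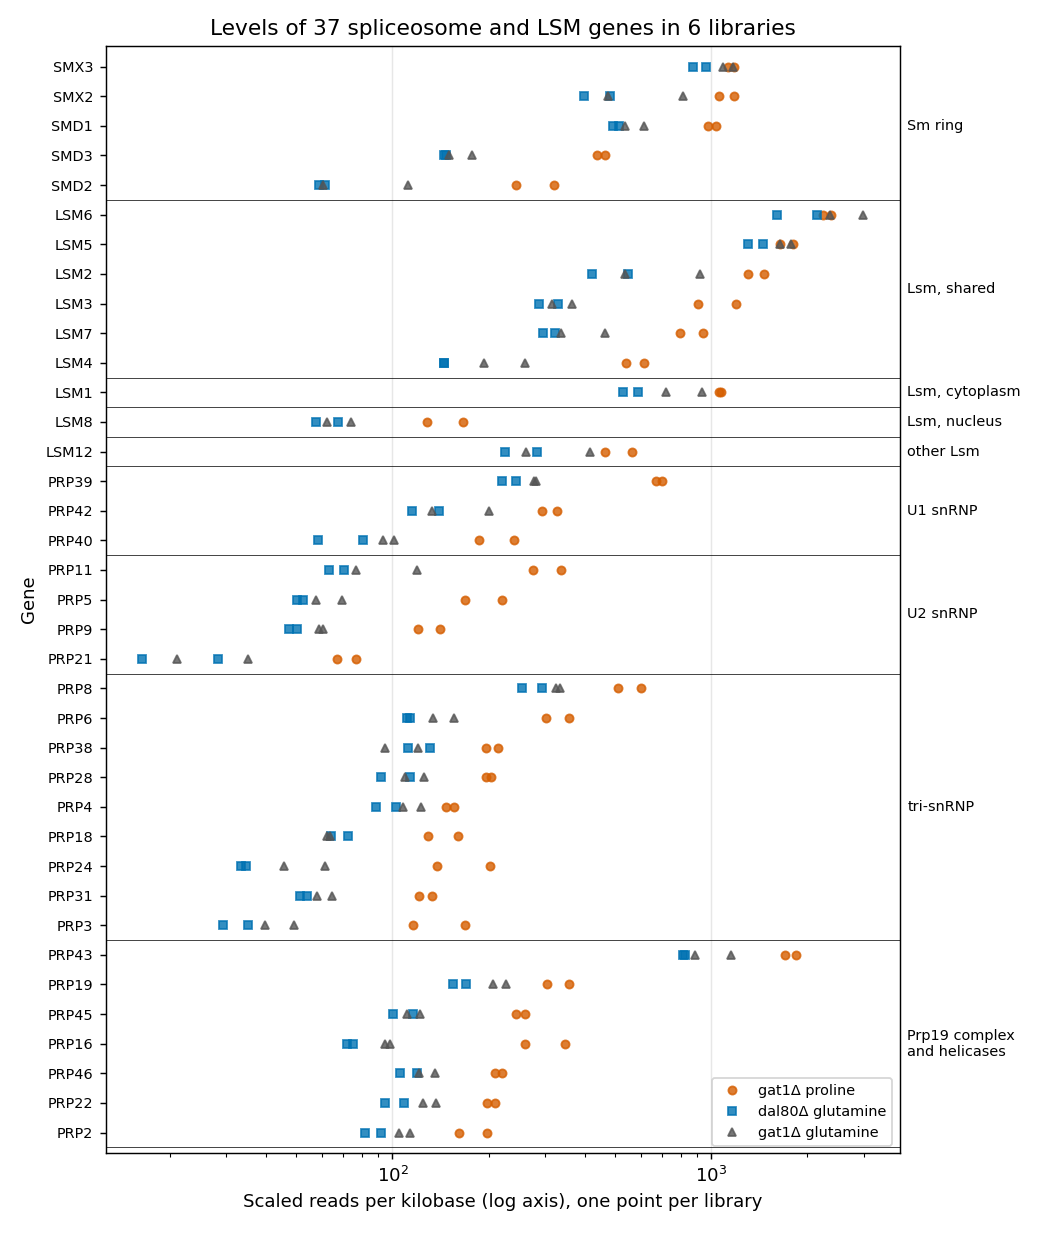
Scaled reads per kilobase (log axis) of the 37 genes, grouped by role, with one point per library: circles for gat1Δ proline, squares for dal80Δ glutamine, triangles for gat1Δ glutamine. For 34 of the 37 genes both circles lie to the right of both triangles, and LSM6, LSM5 and SMX3 are the exceptions. The proline libraries stood above in the same way for 65.9% of all genes tested.

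The first comparison asked how these transcripts differ between gat1Δ cells in proline and in glutamine. Of the 37 genes 32 rose in proline, none fell and 5 did not pass the threshold, a limma p-value of 0.05 after adjustment over all genes tested. Over all 5594 genes tested, 56.5% were called higher and 15.1% lower in proline. The median log2 fold change of the 37 was 0.89, and that of all tested genes 0.50, so the typical gene stood higher in proline on the deposited scale. With densities rescaled by TMM factors, which assume that most genes are unchanged, the median of all genes was 0.06 and that of the 37 was 0.46. Then 20 of the 32 calls remained, and LSM6, LSM5 and SMX3, 3 genes in all, were called lower, against a background of 33.8% higher and 29.8% lower. RLE factors gave 19 higher and 3 lower (background 31.4% and 31.7%). On whole reads recovered from the scaled counts, edgeR gave 18 higher and 3 lower (background 33.5% and 30.2%), and DESeq2 gave 16 higher and 3 lower (background 29.5% and 31.1%). Here edgeR used TMM factors and DESeq2 used RLE factors, so they are not separate checks of the scaling. The distance to the median gene was 0.39 on the deposited scale and 0.40 on the TMM scale. Rescaling each library as a whole moves all its genes nearly alike, so these values were bound to be close. The distance was 0.48 in edgeR, 0.48 in DESeq2 and 0.17 with a pseudocount 10 times larger. In 34 of the 37 genes both proline libraries stood above both glutamine libraries and in none below, where 65.9% of all genes tested stood above and 20.6% below.

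Markers of mating type moved in the same comparison, although both groups carry the same deletion. The 7 genes specific to a cells came to 6517 and 4922 summed scaled reads in proline, against 193 and 171 in glutamine, and all 7 were called higher on the deposited and the TMM scale (median log2 fold change 4.68). The 4 genes specific to α cells came to 84262 and 89581 in proline, against 36055 and 36270 in glutamine, and 2 of them were called higher, or 1 on the TMM scale. None of these 11 genes was at 0 in any library. The 5 meiotic genes came to 376 and 362 in proline, against 218 and 165 in glutamine. Of the 4 tested 3 were called higher and none lower, or 1 and 1 on the TMM scale, and 1 of the 5 was at 0 in 1 library of each group. The part of these marker changes in the result for the 37 genes was not tested.

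Both scales place the same genes high. LSM3 (YLR438C-A, chromosome 12, 1013909 to 1014178), for a subunit of both Lsm rings, stood at 1193 and 910 scaled reads per kilobase in proline, against 366 and 317 in glutamine. The groups did not overlap, and the log2 fold change of the density was 1.55 ± 0.16 (SE, limma adjusted p = 5.65e-05), or 1.06 on the TMM scale. SMD2 (YLR275W, chromosome 12, 694378 to 694800), for the Sm ring subunit D2, stood at 322 and 245 in proline, against 112 and 60.5 in glutamine. Its glutamine libraries lay far apart, yet both were under the lower proline library, and the log2 fold change was 1.52 ± 0.23 (limma adjusted p = 0.000354). PRP11 (YDL043C, chromosome 4, 375680 to 376480) encodes a subunit of SF3a, the complex that helps U2 bind the branch point. It stood at 338 and 276 in proline, against 119 and 77.1 in glutamine (log2 1.46 ± 0.19, limma adjusted p = 0.000162). PRP16 (YKR086W, chromosome 11, 599857 to 603072) encodes the DEAH-box ATPase that remodels the spliceosome before the second catalytic step. It stood at 346 and 260 in proline, against 94.5 and 97.9 in glutamine, with close glutamine libraries (log2 1.44 ± 0.16, limma adjusted p = 6.66e-05). The pseudocount makes these values smaller than the ratios of group means, which were 3.08 for LSM3, 3.29 for SMD2, 3.13 for PRP11 and 3.15 for PRP16.

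**Figure D2:**
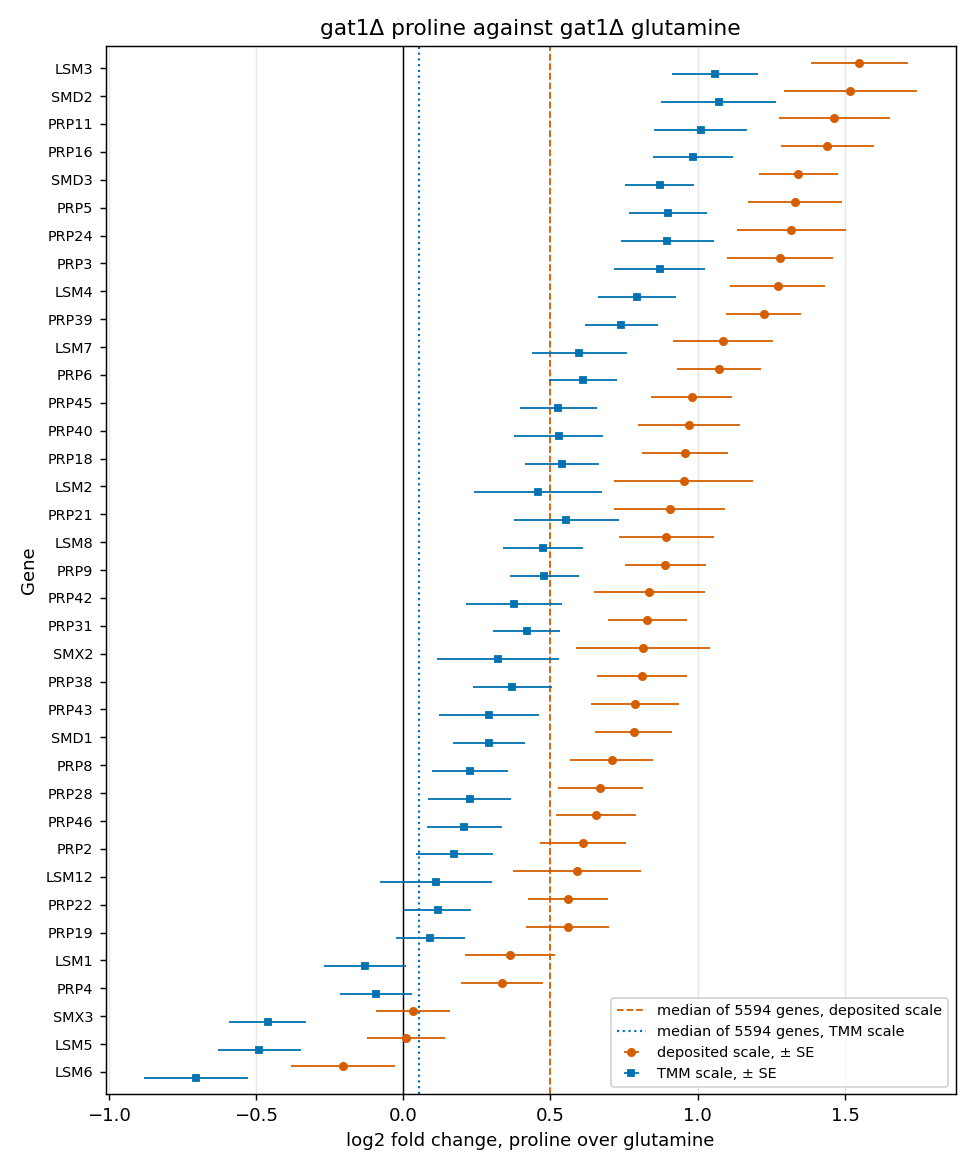
Log2 fold change of each of the 37 genes, gat1Δ proline over gat1Δ glutamine, with its standard error, on the deposited scale (circles) and on the TMM scale (squares). Dashed and dotted lines give the median of all 5594 tested genes, 0.50 and 0.06, and LSM3 is at the top and LSM6 at the bottom.

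At the other end stood genes of the rings and PRP4. LSM6 (YDR378C, chromosome 4, 1229349 to 1229609) had 2364 and 2242 scaled reads per kilobase in proline and 2995 and 2351 in glutamine. The lower glutamine library lay between the proline libraries, so the groups overlapped, and the log2 fold change was -0.20 ± 0.18 (limma adjusted p = 0.321). LSM5 (YER146W, chromosome 5, 462585 to 462866), also in both Lsm rings, had 1635 and 1803 in proline and 1776 and 1637 in glutamine (log2 0.01 ± 0.13, limma adjusted p = 0.95). SMX3 (YPR182W, chromosome 16, 900194 to 900454), for the Sm ring subunit F, had 1130 and 1178 in proline and 1171 and 1085 in glutamine (log2 0.03 ± 0.13, limma adjusted p = 0.82). The libraries of LSM5 and of SMX3 overlapped between the groups. On the TMM scale the log2 fold changes were -0.70 for LSM6, -0.49 for LSM5 and -0.46 for SMX3, so the direction of LSM5 and SMX3 depends on the scaling. PRP4 (YPR178W, chromosome 16, 892332 to 893729), for a U4/U6 snRNP protein, had 147 and 156 in proline, against 123 and 108 in glutamine, without overlap. Its log2 fold change was 0.34 ± 0.14 (limma adjusted p = 0.0553), and -0.09 on the TMM scale. Without gat1Δ glutamine replicate 1 it was 0.41 and passed the threshold.

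The Sm proteins showed both patterns. SMD3 (log2 1.34 ± 0.13) and SMD1 (0.78 ± 0.13), for the subunits D3 and D1, and SMX2 (0.81 ± 0.23), for the subunit G, rose with SMD2, while SMX3 did not pass. SMX2 had 1175 and 1055 scaled reads per kilobase in proline, against 816 and 475 in glutamine, so that its glutamine libraries were far apart. Its call ended without gat1Δ proline replicate 1 (log2 0.74) or without gat1Δ glutamine replicate 2 (0.44), and on the TMM scale (0.32), where SMD1 did not pass either (0.29). SMD1 and PRP38 overlap by 6 bases on opposite strands at their 3′ ends, and the sources used here do not say how strand was handled in counting. The other Sm protein genes, from a fixed list, behaved alike in part, with SMB1, for subunit B, higher in proline (1.45 ± 0.16) and SME1, for subunit E, at 0.35 ± 0.18 without passing (-0.12 on the TMM scale).

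Among the subunits shared by both Lsm rings LSM3, LSM4 (1.27 ± 0.16), LSM7 (1.09 ± 0.17) and LSM2 (0.95 ± 0.24) rose, and LSM5 and LSM6 did not pass. LSM2 did not pass on the TMM scale (0.46). LSM1 (YJL124C, chromosome 10, 187126 to 187644), the cytoplasmic subunit, had 1069 and 1054 scaled reads per kilobase in proline and 935 and 720 in glutamine. Proline libraries were higher without overlap, but the change of 0.36 ± 0.15 on the log2 scale missed the threshold (limma adjusted p = 0.0567), and on the TMM scale it was -0.13. Without gat1Δ glutamine replicate 1, the higher of that group, it was 0.55 and passed. LSM8 (YJR022W, chromosome 10, 469784 to 470113), the nuclear subunit, had 167 and 128 in proline, against 74.3 and 62.4 in glutamine, and rose by 0.89 ± 0.16 (limma adjusted p = 0.00103). That call held on the TMM scale and ended in edgeR (log2 0.60, adjusted p = 0.0776) and in DESeq2 (0.55, adjusted p = 0.210). The ratio of LSM1 to LSM8 per kilobase was 6.42 and 8.23 in gat1Δ proline, 10.2 and 7.83 in dal80Δ glutamine, and 12.6 and 11.5 in gat1Δ glutamine. It was lower in both proline libraries than in both gat1Δ glutamine libraries, and 2 libraries against 2 cannot reach a p of 0.05 in an exact permutation test. LSM12, for an Lsm-domain protein outside the rings, rose by 0.59 ± 0.22 (limma adjusted p = 0.0344), a call that ended without gat1Δ proline replicate 1 (log2 0.45), without gat1Δ glutamine replicate 2 (0.28) or on the TMM scale (0.11).

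Ring subunits are present in equal numbers in the assembled ring, but their transcripts spanned a wide range that was narrower in proline. Among the 5 Sm genes the highest exceeded the lowest 3.66 and 4.81 times in gat1Δ proline, 15.0 and 15.7 times in dal80Δ glutamine, and 10.5 and 17.9 times in gat1Δ glutamine. For LSM1 to LSM7 the same ratio was 3.85 and 4.16 in gat1Δ proline, 11.0 and 14.8 in dal80Δ glutamine, and 11.5 and 12.2 in gat1Δ glutamine. In every library SMD2 was the lowest of the 5 Sm genes, LSM4 the lowest of LSM1 to LSM7, and LSM6 the highest Lsm subunit. SMX3 was the highest of the 5 Sm genes except in gat1Δ proline replicate 1, where SMX2 was. With LSM8 in place of LSM1 the ratio of LSM6 to LSM8 was 14.2 and 17.5 in gat1Δ proline, 27.7 and 31.8 in dal80Δ glutamine, and 40.3 and 37.7 in gat1Δ glutamine. A ratio within a library does not depend on the scaling between libraries. These ratios were computed after the changes of the single genes had been seen and were not tested.

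**Figure D3:**
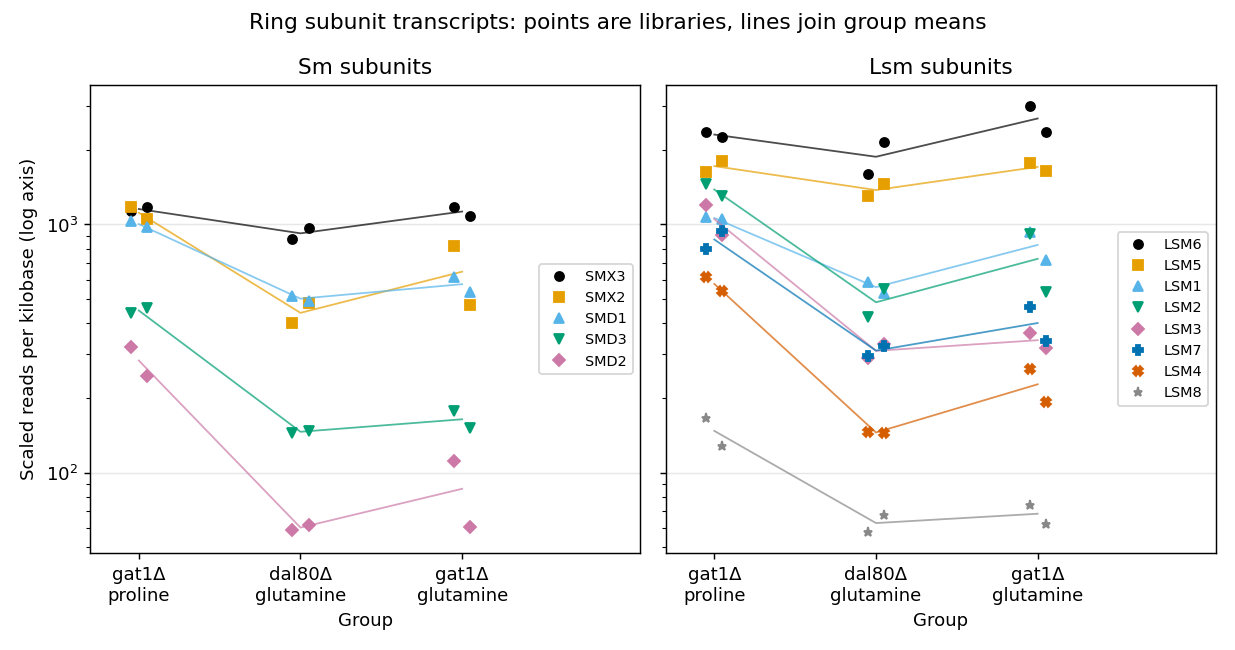
Scaled reads per kilobase (log axis) of the Sm subunit genes (left panel) and the Lsm subunit genes (right panel) in gat1Δ proline, dal80Δ glutamine and gat1Δ glutamine. Points are libraries and lines join group means, and SMD2 and LSM4 stand nearer to SMX3 and LSM6 in proline than in either glutamine group.

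All 3 U1 genes and all 4 U2 genes among the 37 rose, where 56.5% of all genes tested were called higher. The U1 genes were PRP39 (1.22 ± 0.13) and PRP42 (0.84 ± 0.19), for a related pair of U1 snRNP proteins, and PRP40 (0.97 ± 0.17), for a protein that contacts the branch point binding factor. PRP39 averaged 685 ± 21.4 scaled reads per kilobase in proline and 280 ± 3.01 in glutamine (SD, n = 2 each), with close replicates in both groups. PRP42 did not pass on the TMM scale (0.38). The U2 genes, which passed on the TMM scale too, were PRP11, PRP5 (1.33 ± 0.16), for the DEAD-box ATPase that acts when U2 joins the intron, and PRP9 (0.89 ± 0.14) and PRP21 (0.90 ± 0.19), for the other SF3a subunits. The call of PRP21 ended in DESeq2 (adjusted p = 0.0592). PRP21 had 77.1 and 66.9 scaled reads per kilobase in proline, against 35.3 and 21.1 in glutamine. The pseudocount is close to these glutamine levels and makes its log2 fold change smaller than its ratio of group means, 2.55.

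Of 9 genes for U4/U6 and U5 proteins and their partners 8 rose, and 6 did so on the TMM scale. Of all genes tested 56.5% were called higher, or 33.8% on the TMM scale. PRP24 (1.32 ± 0.19), whose product anneals U4 with U6, and PRP3 (1.28 ± 0.18), for a U4/U6 protein, were highest. PRP6 (1.07 ± 0.14), for a bridge between U4/U6 and U5, PRP18 (0.96 ± 0.15), for a second-step factor, PRP31 (0.83 ± 0.13) and PRP38 (0.81 ± 0.15), which is needed to activate the spliceosome, passed on both scales. The call of PRP38 ended with RLE scaling (limma adjusted p = 0.0558), in edgeR (adjusted p = 0.0553) and in DESeq2 (adjusted p = 0.160), and that of PRP31 in DESeq2 (adjusted p = 0.0536). PRP8 (0.71 ± 0.14), the large U5 protein at the catalytic centre, and PRP28 (0.67 ± 0.14), the ATPase that releases U1, passed on the deposited scale alone, at 0.23 and 0.23 after TMM rescaling. PRP8 averaged 555 ± 63.5 scaled reads per kilobase in proline and 330 ± 8.08 in glutamine (SD, n = 2 each).

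All 7 genes for the Prp19 complex and for the helicases of activation, release and disassembly rose, but only PRP16 and PRP45 passed on the TMM scale. The shares of all genes tested called higher were 56.5%, or 33.8% on the TMM scale. PRP45 (0.98 ± 0.14) encodes the yeast relative of the human protein SKIP. PRP43 (0.79 ± 0.15), for the ATPase that takes the spent spliceosome apart, was the most abundant PRP transcript, at 1768 ± 104 scaled reads per kilobase in proline and 1021 ± 185 in glutamine (SD, n = 2 each). PRP46 (0.65 ± 0.14), PRP2 (0.61 ± 0.15), for the activating ATPase, PRP22 (0.56 ± 0.14), for the ATPase that releases messenger RNA, and PRP19 (0.56 ± 0.14), for the ubiquitin ligase of the complex, lay close to the median gene of 0.50.

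Genes at a higher level tended to have lower signed log2 fold changes in proline. Across the 37 genes the mean level over 6 libraries and the log2 fold change in proline had a Spearman coefficient of -0.30, against -0.23 across all 5594 genes. From edgeR's fold changes on recovered reads it was -0.45 for the 37 and -0.29 for all genes. Genes are not independent samples, both axes use the same libraries, and the coefficients are descriptions. Gene length showed little relation to the change, with a coefficient of 0.05 across the 37.

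**Figure D4:**
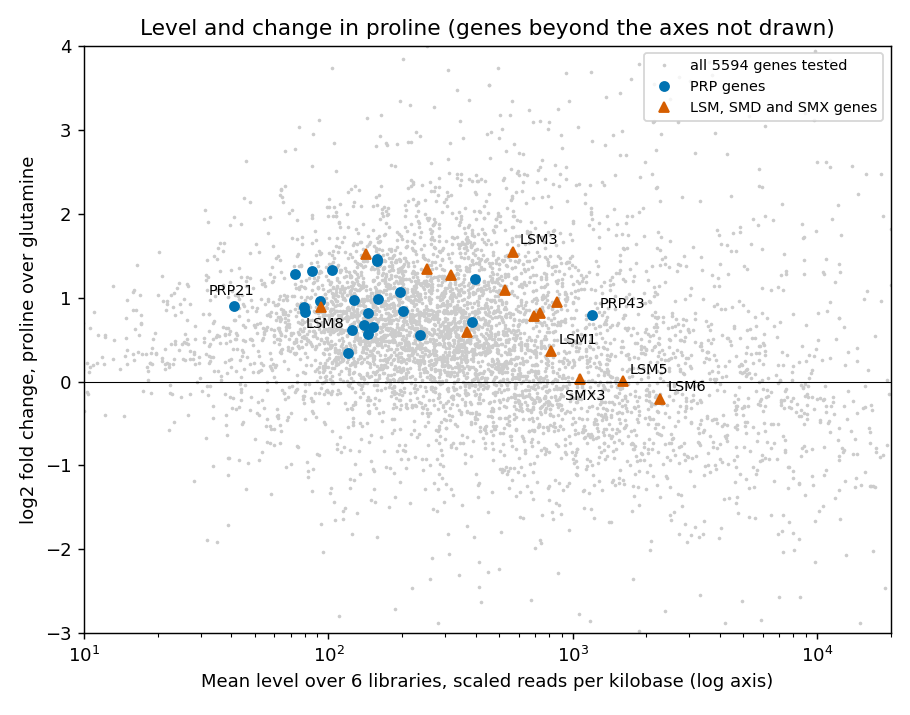
Log2 fold change in proline over glutamine in gat1Δ cells against the mean level over 6 libraries (scaled reads per kilobase, log axis). Grey dots are all tested genes within the axes, blue circles the PRP genes and orange triangles the LSM, SMD and SMX genes, and LSM6, LSM5 and SMX3 sit at the high end of the 37 near a fold change of 0.

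Spliceosome genes outside the rule were read from lists fixed for this purpose. Of 59 such genes 53 rose in proline and 1 fell, with a median log2 fold change of 1.03, and on the TMM scale 37 rose and 2 fell, with a median of 0.54. The shares over all genes tested were 56.5% higher and 15.1% lower, or 33.8% and 29.8% on the TMM scale. Of 27 further genes of the Prp19 complex and the catalytic steps 25 rose, led in adjusted p by IST3 (3.27 ± 0.22), for a subunit of the RES complex, and CWC21 (1.79 ± 0.15). Of 12 other U1 and early factors 9 rose, such as YHC1 (1.56 ± 0.13) and MUD1 (1.43 ± 0.16), and 1 fell, or 5 and 2 on the TMM scale. The one that fell was SUB2 (-0.92 ± 0.12), named after its value was seen, for an ATPase that also acts in messenger RNA export. All 9 other U2 genes rose, among them HSH49 (1.47 ± 0.13) and CUS1 (1.38 ± 0.14), as did all 9 other U4/U6 and U5 genes, among them DIB1 (1.03 ± 0.17) and SNU23 (1.29 ± 0.22).

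Of 10 genes for decay partners of Lsm1 to Lsm7 and for proteins related to Lsm12, 4 rose and 1 fell, with a median log2 fold change of 0.23. On the TMM scale 3 rose and 4 fell, and the sign of the median turned, to -0.24. These counts are to be read against the same shares over all genes, 56.5% higher and 15.1% lower, or 33.8% and 29.8% on the TMM scale. DCP2 (0.95 ± 0.14), for the decapping enzyme, and EDC2 (1.24 ± 0.18), for an enhancer of decapping, rose. The one that fell was XRN1 (-0.70), named after its value was seen, for the exonuclease that degrades decapped messenger RNA. All 5 genes listed under maturation of U6 and other snRNAs rose on both scales (median 1.70, or 1.22 on the TMM scale). Among them were RNT1 (2.16 ± 0.16), for the RNase that cuts snRNA precursors, and HMT1 (1.72 ± 0.13), for an arginine methyltransferase. The snRNAs themselves stood higher in both proline libraries than in both gat1Δ glutamine libraries, as did 65.9% of the protein-coding genes tested. Both dal80Δ glutamine libraries also stood above both gat1Δ glutamine libraries for every snRNA, as for 17.4% of the genes tested. The snRNA levels were not tested. U6 (SNR6) averaged 144639 ± 12091 scaled reads per kilobase in gat1Δ proline, 79063 ± 21693 in dal80Δ glutamine and 37893 ± 1676 in gat1Δ glutamine (SD, n = 2 each), and U1 (SNR19) averaged 554191 ± 64087, 244776 ± 33056 and 193900 ± 9623 in the same groups.

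The second comparison set dal80Δ cells against gat1Δ cells, both in glutamine. None of the 37 genes was called in either direction by limma, edgeR or DESeq2, where limma called 3.97% of all tested genes higher and 1.48% lower in dal80Δ. The background shares higher and lower were 6.19% and 0.894% with TMM scaling, 6.22% and 1.04% with RLE scaling, 6.9% and 1.2% in edgeR, and 7.83% and 1.47% in DESeq2, each again with 0 of the 37. At an unadjusted p under 0.05 limma gave 5 of the 37 genes, all lower in dal80Δ, where 19.6% of all tested genes were lower at that level. The median log2 fold change of the 37 was -0.29, and that of all tested genes -0.15, or -0.14 and -0.01 on the TMM scale. Both dal80Δ libraries lay below both gat1Δ libraries for 25 of the 37 genes and above for 1, where 46.4% of all tested genes lay below and 17.4% above. Without gat1Δ glutamine replicate 2, 3 genes passed as lower, SMX2 (log2 -0.86), LSM2 (-0.90) and LSM4 (-0.76). Replicate 1 of that group was above replicate 2 in 31 of the 37 genes, and in 67.7% of all tested genes.

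The lowest log2 fold changes were those of genes of the Lsm rings. LSM4 (YER112W, chromosome 5, 387232 to 387795) had 145 and 145 scaled reads per kilobase in dal80Δ, against 261 and 193 in gat1Δ, without overlap. Its log2 fold change was -0.56 (95% interval -0.92 to -0.19, limma adjusted p = 0.0779). LSM1 had 589 and 529 in dal80Δ, against 935 and 720 in gat1Δ, again without overlap, at -0.54 (95% interval -0.88 to -0.19, limma adjusted p = 0.0743). LSM2 (YBL026W, chromosome 2, 170623 to 171038) had 423 and 549 in dal80Δ and 920 and 535 in gat1Δ, where replicate 1 alone stood high and the groups overlapped (-0.52, 95% interval -1.06 to 0.01, limma adjusted p = 0.184). LSM6 had 1599 and 2149 in dal80Δ, against 2995 and 2351 in gat1Δ, at -0.51 (95% interval -0.91 to -0.11, limma adjusted p = 0.114). None of these 4 passed after adjustment.

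At the upper end PRP38 (YGR075C, chromosome 7, 636147 to 636875) had 112 and 131 scaled reads per kilobase in dal80Δ and 120 and 94.6 in gat1Δ, with overlap (log2 0.15, 95% interval -0.19 to 0.50, limma adjusted p = 0.523). PRP18 (YGR006W, chromosome 7, 506070 to 506825) had 72.7 and 63.9 in dal80Δ, against 63.7 and 62.5 in gat1Δ. It was the gene whose dal80Δ libraries both stood above, by a narrow margin (0.08, 95% interval -0.25 to 0.42, limma adjusted p = 0.722). LSM8 had 57.7 and 67.6 in dal80Δ and 74.3 and 62.4 in gat1Δ, with overlap (-0.09, 95% interval -0.46 to 0.28, limma adjusted p = 0.722). PRP45 (YAL032C, chromosome 1, 83335 to 84474) had 116 and 100.2 in dal80Δ and 111 and 122 in gat1Δ, with overlap (-0.09, 95% interval -0.40 to 0.22, limma adjusted p = 0.671). For LSM8 and PRP45 the sign turned on the TMM scale, to 0.03 and 0.04.

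**Figure D5:**
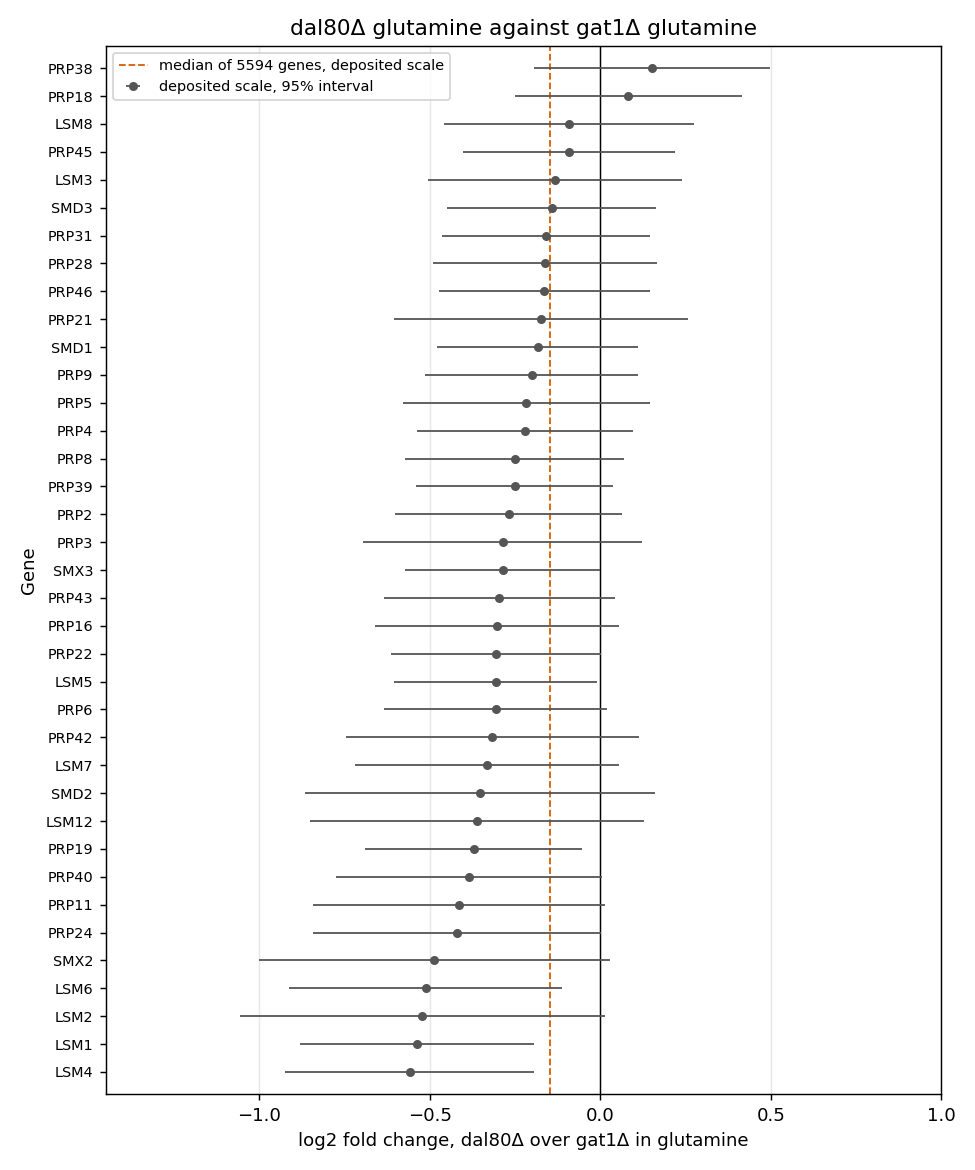
Log2 fold change of each of the 37 genes, dal80Δ over gat1Δ, both in glutamine, with its 95% interval from limma (not adjusted for the number of genes). The dashed line is the median of all tested genes, -0.15. Of the 37 genes 35 lie below 0, as do 3896 of the 5594 genes tested, and none of the 37 was called after adjustment.

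In the related lists limma made no calls in dal80Δ against gat1Δ in glutamine. It called 0 of 59 other spliceosome genes, 0 of 10 decay partners and 0 of 5 genes listed under snRNA maturation. Over all genes tested it called 3.97% higher and 1.48% lower. In the decay list edgeR and DESeq2 each called 1 of 10 genes higher in dal80Δ, where they called 6.9% and 7.83% of all genes tested higher. The gene was EDC2 in both (log2 0.66, adjusted p = 0.0349 in edgeR, and log2 0.65, adjusted p = 0.0122 in DESeq2). Neither tool called a gene of the other 2 lists. Unadjusted limma p-values under 0.05 numbered 14, 1 and 2 in these lists, where 28.4% of all genes tested had one. The strains differed in the genes of their mating types. The 7 genes specific to a cells came to 27468 and 25721 summed scaled reads in dal80Δ, against 193 and 171 in gat1Δ, and the 4 genes specific to α cells to 448 and 433 in dal80Δ, against 36055 and 36270 in gat1Δ. All 7 were called higher and all 4 lower in dal80Δ. Between these strains mating type and deletion cannot be told apart. The 5 meiotic genes came to 142 and 152 in dal80Δ, against 218 and 165 in gat1Δ, and limma called none of the 4 tested.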

How the data were processed

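Per the labels' protocols, RNA was extracted with hot phenol, ribosomal RNA was removed (RiboMinus), and stranded TruSeq libraries were sequenced in read pairs. TopHat and build R64 are named, without a role, per the submitters' processing notes. Not given in the sources used here were the counter, its handling of strand and of multiply matching reads, and the versions.

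The authors deposited 1 table that gives, per the file headers, a normalized density and a read count for each feature and library. Each deposited density signal was the scaled read count over the feature's length. The deposited read counts were whole counts in gat1Δ proline replicate 1 and whole multiples of 1 step in every other library, so 100% of positive values came out as whole reads within 0.01. All 37 genes had the coordinates of the RefSeq R64 annotation, from which sequences were read. A further 6 columns that sum groups were not used.

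Samples were grouped by title. The members and the gene lists were chosen with earlier results of these data known. All 37 members passed the filter of 10 scaled reads in 2 libraries. After adding a pseudocount of 0.0229 (percentile 5 of all positive densities of genes), log2 densities were fitted with limma 3.58.1 (R 4.3.3, intensity trend) over 5594 genes and all 6 libraries. The group was the only factor and left 3 residual degrees of freedom. P-values were adjusted by Benjamini-Hochberg over all genes of a comparison, with a threshold of 0.05. The whole-count test planned first was edgeR 4.0.16, which was run on recovered reads as an alternative, beside DESeq2 1.42.0, other scalings, filters and pseudocounts, a replicate block and each library left out. Named in full were the 4 highest and 4 lowest members of each comparison, LSM1 and LSM8, and up to 2 genes of each other list by adjusted p. dal80Δ in proline was not analysed here, so dal80Δ glutamine was not set against gat1Δ proline, which differs in strain and medium.

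Replicates are biological per the labels. If cultures were not separate, p-values measure technical spread. Read counts of replicates differed beyond counting noise: the chi-square divided by its degrees of freedom was 71.4 in gat1Δ proline, 50.8 in dal80Δ glutamine and 42.1 in gat1Δ glutamine.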

Additional observations from a re-analysis of the deposited data

How the results depend on the processing

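In proline against glutamine, the 32 higher and 0 lower genes became 20 and 3 with TMM scaling, 19 and 3 with RLE scaling, 18 and 3 in edgeR and 16 and 3 in DESeq2, and the calls that remained numbered 20, 19, 18 and 16 of the 32. The median log2 fold change of the 37, 0.89, became 0.46, 0.41, 0.54 and 0.49 under the same settings. With a pseudocount 10 times larger it was 0.44, and the median of all genes tested was 0.27. Scaling in edgeR was by TMM factors and in DESeq2 by RLE factors, so these are not separate checks of the scaling. The rescaling removes the shift of the median gene by construction. Over all genes the calls were 3162 higher and 844 lower as reported, 1889 and 1669 with TMM scaling, 1756 and 1775 with RLE scaling, 1874 and 1687 in edgeR and 1651 and 1739 in DESeq2. Leaving out each library in turn gave 30 to 34 higher genes and medians of 0.77 to 0.97. Without the low-value filter the count was 32.

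Signs turned in proline with TMM, RLE, edgeR and DESeq2 for LSM5 (-0.49, -0.54, -0.49, -0.54), SMX3 (-0.46, -0.51, -0.47, -0.52), LSM1 (-0.13, -0.18, -0.14, -0.19) and PRP4 (-0.092, -0.14, -0.10, -0.16). Leaving out each library in turn gave -0.060 to 0.080 for LSM5 and -0.020 to 0.087 for SMX3. In dal80Δ against gat1Δ the median of the 37, -0.29, became -0.12 with the larger pseudocount, -0.14 with TMM, -0.15 with RLE and -0.16 in edgeR. Without 1 library it ranged from -0.34 to -0.19, with 0 to 3 lower genes. Signs turned there under the same 4 settings for PRP45 (0.041, 0.034, 0.043, 0.035), LSM8 (0.028, 0.022, 0.041, 0.033) and LSM3 (0.016, 0.0096, 0.020, 0.013). Leaving out each library in turn gave -0.38 to 0.028 for PRP21 and -0.19 to 0.0027 for LSM8. A library left out leaves its group with 1, which is assumed to vary like the others.

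With the replicate number as a block the counts were 32 and 0 in proline and 0 and 0 in dal80Δ. The deviations of same-numbered libraries correlated at 0.01 between the gat1Δ groups and at -0.25 between dal80Δ and gat1Δ glutamine. These values give no sign that the numbers pair the libraries, which 2 libraries per group cannot settle. Crossed pairing, chosen after seeing the data, called 0 and 0 of the 37 in dal80Δ. Counting noise limits the lowest genes most.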
